A study of Mus musculus with 6 samples.

Results

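The Hox genes are 39 transcription factor genes that lie in 4 clusters, and 40 of the 53797 genes listed in the comparison carried such a symbol, because Hoxd4 was listed under 2 identifiers. The members were taken by symbol alone (HoxA, HoxB, HoxC or HoxD followed by a paralog number), without antisense or opposite-strand transcripts. MLO-Y4 is an osteocyte-like murine cell line, a single line derived from long bones of a transgenic mouse in which a viral large T antigen was driven by the osteocalcin promoter. RNA was sequenced from 3 cultures treated with LIPUS (low-intensity pulsed ultrasound, 20 min at 1.5 MHz and 30 mW/cm2) and from 3 untreated Control cultures. According to the methods, the Control cultures shared culture plates with the treated ones. The paper reports that a Control replicate stood apart from the rest in a principal component analysis. It proposes leakage of LIPUS into control cells as a possible reason. Every Control value and ratio below includes that replicate, and its weight in them was not tested. Each group is given as 1 FPKM value per gene (fragments mapped to a gene, scaled to its exon length and to the size of the library, pooled over the cultures by the authors), so no value of a single culture, no SD and no test is given here for any gene, and the reads behind each value cannot be read from the table, although the methods state a nominal read number per sample.

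Hox proteins bind DNA through a homeodomain and give cells of the trunk and limbs their position along the body axis. In each cluster the genes stand in the order of the axial level at which they act, from paralog group 1 (anterior) to paralog group 13 (posterior), and the posterior genes also pattern the limb from shoulder or hip to the digits. Fibroblasts and bone cells of adults are known to keep part of the Hox pattern of the site from which they came. In this text the groups 1 to 3 are called anterior, 4 to 8 central and 9 to 13 posterior.

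In Control cells transcripts were detected from 3 of the 4 clusters. The whole HoxB cluster (10 genes) was listed at 0 with and without LIPUS, while 10 of 11 HoxA genes, 5 of 9 HoxC genes and 3 of the 10 HoxD entries reached an FPKM of 1 in Control. The posterior genes of the 3 detected clusters held 68.0% of the summed Hox FPKM in Control and 67.8% in LIPUS. None of the 5 Hox genes with a mean FPKM of 7 or more differed by 1.5-fold between the groups, where 8.12% of all genes at that level did, so this count is near the share of all genes. The 7 members that differed by as much had a mean between 1 and 7, where 30.8% of all genes did. These are bulk values, in which fewer cells with a transcript and less transcript per cell cannot be told apart.

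The start sites of members at opposite ends of this pattern are shown first. Hoxa9 and Hoxa11 belong to the block of the HoxA cluster with the highest levels, and Hoxd8 and Hoxb8 are paralogs of which the former was the most abundant HoxD gene and the latter was listed at 0. Each window runs from 250 bases before to 50 bases after a RefSeq start site (build GRCm38.p6), 5′ to 3′ on the strand of the gene, with CpG dinucleotides in capitals. The windows are chr6:52227321-52227620 (minus strand), chr6:52245761-52246060 (minus strand), chr2:74704365-74704664 (plus strand) and chr11:96281655-96281954 (plus strand), in the order printed.
Hoxa9: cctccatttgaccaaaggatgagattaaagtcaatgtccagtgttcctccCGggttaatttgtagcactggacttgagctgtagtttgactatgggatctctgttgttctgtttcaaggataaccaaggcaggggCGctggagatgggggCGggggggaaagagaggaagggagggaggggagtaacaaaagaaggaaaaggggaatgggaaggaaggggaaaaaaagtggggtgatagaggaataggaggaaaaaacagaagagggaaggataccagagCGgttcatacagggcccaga
Hoxa11: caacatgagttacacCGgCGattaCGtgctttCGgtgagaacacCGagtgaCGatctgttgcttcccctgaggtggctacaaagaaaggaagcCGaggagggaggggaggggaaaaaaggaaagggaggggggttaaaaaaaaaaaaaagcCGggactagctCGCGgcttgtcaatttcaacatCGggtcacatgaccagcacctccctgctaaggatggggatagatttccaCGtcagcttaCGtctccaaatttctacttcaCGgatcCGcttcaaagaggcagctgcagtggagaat
Hoxd8: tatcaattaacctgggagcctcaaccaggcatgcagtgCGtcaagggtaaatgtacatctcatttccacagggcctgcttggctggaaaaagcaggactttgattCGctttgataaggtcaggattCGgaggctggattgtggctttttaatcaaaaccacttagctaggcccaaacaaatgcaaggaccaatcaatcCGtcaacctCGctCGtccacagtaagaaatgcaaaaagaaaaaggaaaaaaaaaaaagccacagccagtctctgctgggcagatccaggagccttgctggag
Hoxb8: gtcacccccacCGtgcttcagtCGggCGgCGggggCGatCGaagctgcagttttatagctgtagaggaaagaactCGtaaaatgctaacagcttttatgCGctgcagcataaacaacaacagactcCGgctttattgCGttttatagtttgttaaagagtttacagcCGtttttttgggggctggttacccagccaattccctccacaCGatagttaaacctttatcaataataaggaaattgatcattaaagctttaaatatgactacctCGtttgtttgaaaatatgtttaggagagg

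The Hoxb8 window, of a gene listed at 0, held 13 CpG dinucleotides, more than the 6 of Hoxd8 and the 4 of Hoxa9, and Hoxa11 had 15. Which start site these cells use was not determined, and the Hoxa9 window lies inside the annotated gene (chr6:52223100-52231089). Where a gene had several windows they differed, with 21 and 12 CpG dinucleotides for Hoxa10 and 4 and 25 for Hoxd11. RefSeq windows were matched for 22 of the 39 symbols (24 windows), with a median of 14.5 CpG dinucleotides, against 7 over all 32851 windows of the same length. The ratio of observed to expected CpG had a median of 0.626 over the Hox windows and 0.384 over all windows. The 3 HoxB windows ranged from 0.380 to 0.970 and the 10 HoxA windows from 0.280 to 1.02, so HoxB lay within the range of HoxA. The letters TGATNNAT, a form of the site that Hox and Pbx proteins bind together, were searched on both strands and occurred in 4 Hox windows (16.7%), those of Hoxa2, Hoxb1, Hoxb8 and Hoxd11, and in 8.85% of all windows. The letters TATAAA, searched likewise and counted apart from the former, occurred in 4 Hox windows (16.7%), of Hoxa10, Hoxb8, Hoxd4 and Hoxd13, and in 13.6% of all windows. Both motifs were thus present in the window of Hoxb8.

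In HoxA and HoxC posterior genes led the pattern, with summed Control FPKM of 40.0 and 31.5 against 12.1 and 4.93 for central genes. In HoxD the central genes summed to 17.8 in Control and the posterior ones to 11.3. Hoxc10, a gene of the lumbar spine and hindlimb, had the highest level of all members, with an FPKM of 23.7 in Control and 21.1 in LIPUS, and 74.5% of the 15207 genes detected in Control lay below it. Hoxa10, which acts in the upper part of the limb and in the uterus, had an FPKM of 13.96 in Control and 11.1 in LIPUS. Hoxa9, known for its roles in limb position and in blood progenitors, had an FPKM of 13.4 in Control and 9.87 in LIPUS. These are genes of neighbouring paralog groups, and the HoxA pair lies side by side on the minus strand of chromosome 6. Hoxa11, needed for the bones of the forearm and lower leg, had an FPKM of 9.83 in Control and 10.2 in LIPUS. Hoxa13, which patterns the digits, was lower than its neighbours, at 2.74 in Control and 2.16 in LIPUS. The level therefore dropped at the last paralog of HoxA.

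In HoxC and HoxD the posterior genes were less even. Hoxc11 had an FPKM of 4.62 in Control and 4.66 in LIPUS, and Hoxc9 one of 2.53 and 1.17. Hoxc12 was listed at 0 in both groups, and Hoxc13, a gene of hair and nails, at 0.615 in Control and 0.281 in LIPUS. Hoxd9 and Hoxd10, limb genes, had FPKM values in Control of 5.75 and 5.45, and in LIPUS of 3.41 and 4.73. Hoxd11, the partner of Hoxa11 in the forearm, was near 0 (0.0588 in Control and 0.0682 in LIPUS), and Hoxd12 and Hoxd13 were listed at 0. Of paralog group 11, HoxA and HoxC but not HoxD were therefore above an FPKM of 1, and paralog group 13 was above it in HoxA alone. Summed over its 3 genes, paralog group 10 held 35.4% of the Hox FPKM in Control, more than any other group.

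**Figure D1:**
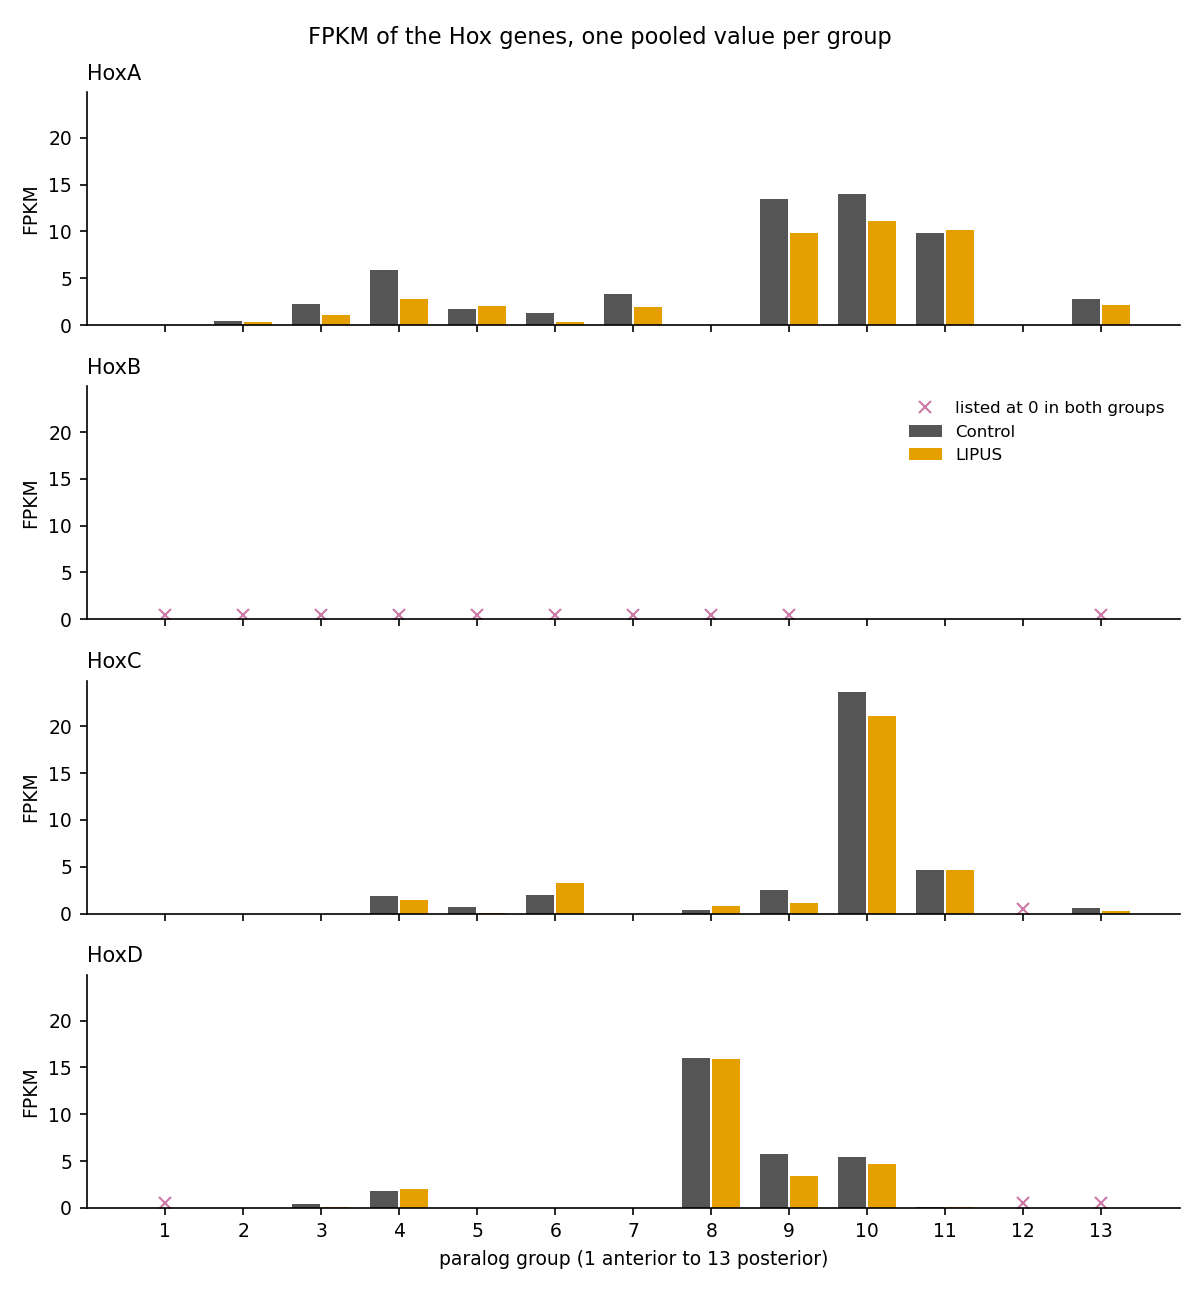
FPKM (vertical axis, one linear scale for all panels) of each Hox gene by paralog group (horizontal axis) in the 4 clusters, 1 pooled value per group without error bars; dark bars are Control, orange bars LIPUS, crosses mark genes listed at 0 in both groups, gaps are paralogs that the cluster lacks or that are not reported here, and the 2 entries of Hoxd4 are summed. Hoxc10 is the tallest at 23.7 in Control, the HoxA block of paralogs 9 to 11 lies between 9.83 and 13.96, and all of HoxB is at 0.

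Of the central genes only Hoxd8 was abundant. Hoxd8, which acts in the trunk, had an FPKM of 15.96 in Control and 15.95 in LIPUS and was second among all members in Control. Its paralog Hoxc8, a gene of the thoracic region, stood at 0.410 in Control and 0.762 in LIPUS. Paralog group 8 was thus carried by 1 gene of its 3. Hoxa4 had an FPKM of 5.83 in Control and 2.73 in LIPUS, Hoxa7 one of 3.26 and 1.97. Hoxa5, known from the neck, shoulder and lung, had 1.67 in Control and 2.02 in LIPUS, and Hoxa6 1.31 and 0.302. Hoxc4 had 1.88 in Control and 1.43 in LIPUS, Hoxc6 1.94 and 3.29, and Hoxc5 0.706 and 0.0789. All of these lay well below Hoxd8.

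Hoxd4 cannot be given as 1 reliable value. Both entries were placed in the same deposited locus of the HoxD cluster. The entry with a position in the annotation (chr2:74711929-74729160) had an FPKM of 0.935 in Control and 1.59 in LIPUS, and the entry without one 0.885 and 0.374, so that they differed in direction. Their sums were 1.82 in Control and 1.96 in LIPUS. The exons of Hoxd4 share 52.3% of their length with other genes on the same strand, and those of Hoxd3 62.3%, so reads of these genes could be given to either.

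The anterior genes had the lowest sum of the axial groups, though some central and posterior genes were lower than single anterior ones. They held 3.43% of the summed Hox FPKM in Control and 2.15% in LIPUS. Hoxa3, a gene of the throat and thymus, had an FPKM of 2.19 in Control and 1.06 in LIPUS. Hoxa2, a gene of the middle ear skeleton, had 0.426 and 0.352, and Hoxd3 0.441 and 0.0861. Hoxd1 was listed at 0. Hoxa3 was thus higher than Hoxa2 and Hoxd3 in both groups.

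In total 14 of the 40 entries were listed at 0 in both groups and 18 reached an FPKM of 1 in Control, or 17 in LIPUS. Among the 21966 protein-coding genes 39.8% were listed at 0 in both groups and 48.5% reached an FPKM of 1 in Control. A value of 0 can be a failed estimate in such a table. Of 126 genes of the ribosome, the proteasome and RNA polymerase II, which every cell uses, 1 was at 0, the thymus gene Psmb11. This check cannot tell whether the 0 of a weak gene, or of HoxB, was a failed estimate. In both groups the order of the detected clusters by summed FPKM was HoxA, HoxC and HoxD. HoxA had 55.8 in Control and 42.4 in LIPUS, HoxC 36.4 and 32.8, and HoxD 29.5 and 26.2. Without replicate values it cannot be said which neighbours in this order differ beyond their spread.

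The zero of HoxB covered the whole cluster. The 10 genes lie on chromosome 11 (chr11:96194316-96368256, GRCm38), over 174 kb, and the 9 other transcripts listed between them, such as the antisense transcripts Hoxb3os and Hoxb5os, were also at 0 in both groups. Neighbours were looked up only among genes with a mean FPKM of at least 1, so they could not be at 0. On the posterior side the nearest of these was Atp5g1, a subunit gene of the mitochondrial ATP synthase, at a distance of 119 kb, with an FPKM of 164 in Control and 172 in LIPUS. On the anterior side it was Snx11, a sorting nexin gene, at 399 kb, with 12.2 and 11.6.

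The other clusters lie on chromosome 6 (HoxA), chromosome 15 (HoxC, chr15:102921103-103036852) and chromosome 2 (HoxD, chr2:74668310-74765142). Each holds noncoding transcripts. The strongest was Hoxa11os, which runs antisense to Hoxa11 and shares 800 exonic bases with it, with an FPKM of 17.5 in Control and 16.6 in LIPUS, above Hoxa11 itself. The libraries were stranded, but whether strand was used in the computation of FPKM is not given in the sources used here, so part of the reads of this pair could belong to either. Hotairm1, a long noncoding RNA of the HoxA cluster, had an FPKM of 6.51 in Control and 8.39 in LIPUS, and Hoxd3os1 2.33 and 2.22. The widest ratios inside the clusters belonged to short or weak transcripts, Gm27492 within Hoxa11os, with 3.81 in Control and 0.151 in LIPUS, and Gm14396 beside Hoxd9, listed at 0 in Control and at 1.47 in LIPUS. Hotair in the HoxC cluster was at 0 in Control and 0.116 in LIPUS. All 7 microRNA genes inside the clusters were listed at 0, which mRNA libraries are not made to measure. Near HoxD, Mtx2 on the anterior side had an FPKM of 25.3 in Control and 28.6 in LIPUS and Lnpk on the posterior side 13.9 and 10.2. None of the 24 neighbours of the 4 clusters (the nearest 3 on each side with a mean FPKM of at least 1) differed by 1.5-fold between the groups, beside 15.5% of all genes with such a mean and 8.12% of those with a mean of at least 7. Their log2 ratios of LIPUS to Control lay between -0.45 and 0.33.

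**Figure D2:**
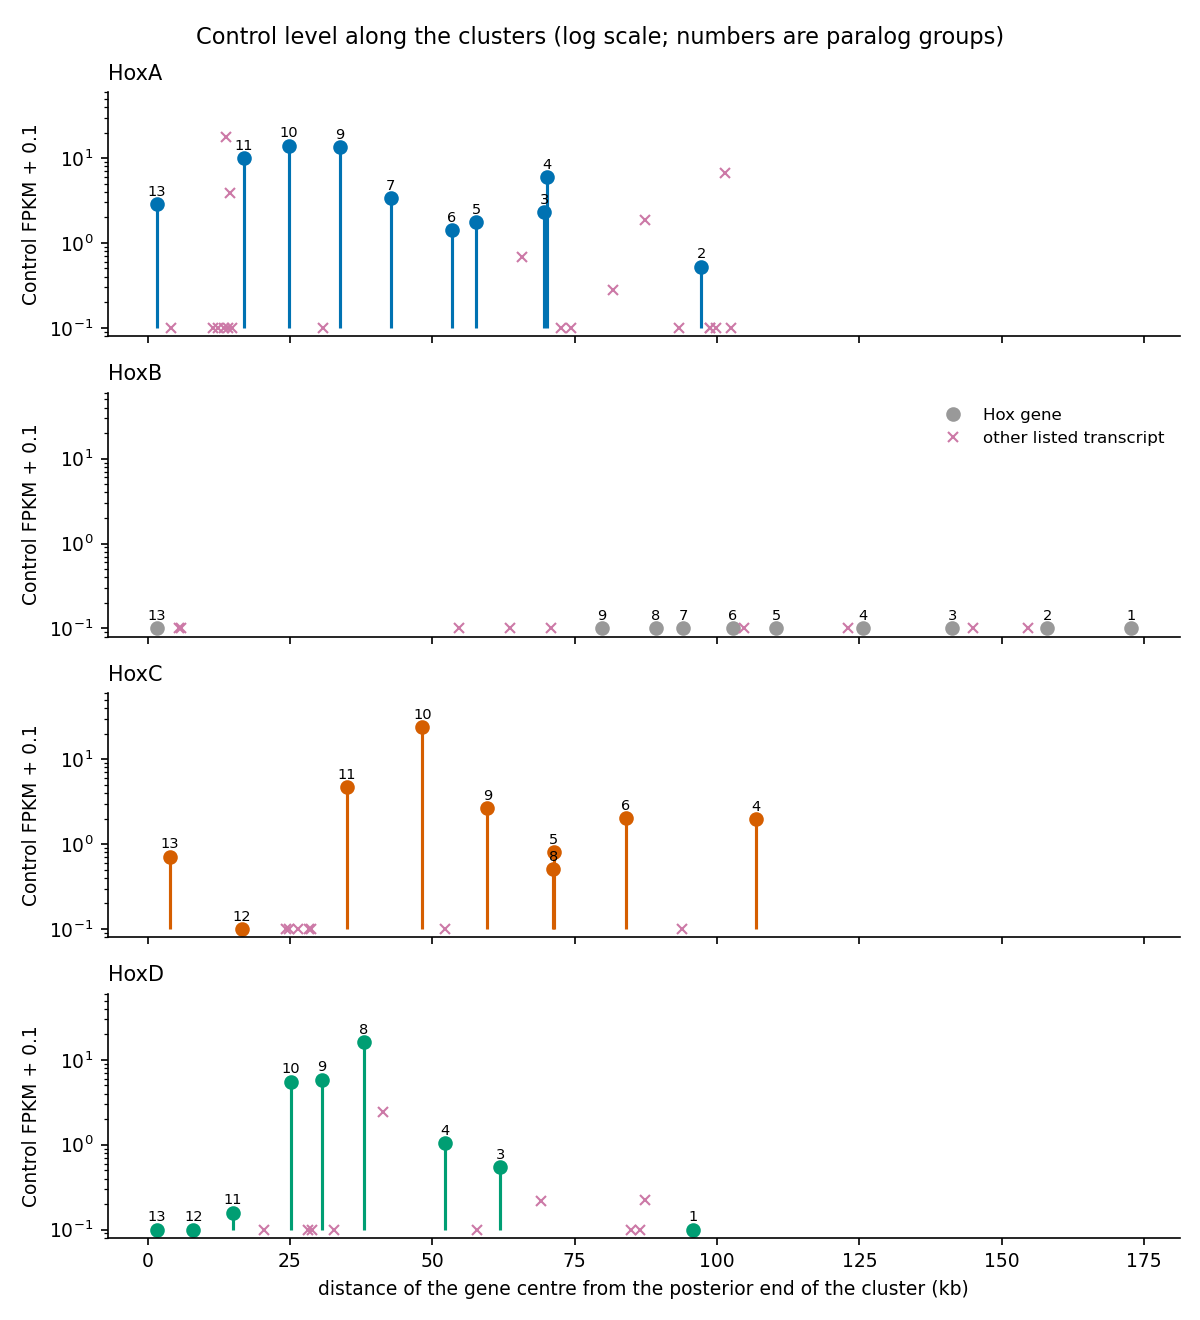
Control FPKM plus 0.1 (vertical axis, log scale) against the distance in kb of each gene's centre from the posterior end of its cluster (horizontal axis); filled points are Hox genes labelled by paralog group, crosses are other transcripts listed inside the cluster, and the Hoxd4 entry without a position in the annotation is left out, as are genes not reported here. The highest points of HoxA, HoxC and HoxD lie within 50 kb of the posterior end, and those of HoxB lie at 0.1, which stands for an FPKM of 0.

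LIPUS and Control were compared as the log2 ratio of the FPKM values with 0.1 added to each, which understates the change of low genes. Of the 40 entries, 17 had a mean FPKM over both groups of at least 1. Among these, 5 were at least 1.5-fold lower with LIPUS and 2 at least 1.5-fold higher, while 8.08% and 7.46% of the 11536 genes with such a mean were that much lower and higher, or 15.5% either way. The median log2 ratio was -0.33 over the 17 entries and -0.0018 over all such genes. In 12 of the 17 the LIPUS value was below the Control value, as in 50.2% of all such genes. Neither the counts nor the medians carry a test, because 1 value per group has no replicate check.

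The entries that differed were weakly expressed. The folds given here are of the FPKM values without 0.1 added, and the log2 ratios with it. Hoxa4 was 2.14-fold lower with LIPUS (log2 ratio -1.07), Hoxc9 2.16-fold lower (-1.05) and Hoxa3 2.08-fold lower (-0.99). Hoxd9 was 1.68-fold lower (-0.74) and Hoxa7 1.65-fold lower (-0.70). Hoxc6 was 1.70-fold higher with LIPUS (0.73), and so was the Hoxd4 entry with a position in the annotation (0.71), the latter only while its 2 entries are kept apart. All of these had a mean FPKM between 1 and 7, a range with 12 entries, of which 7 differed by 1.5-fold. In this range 30.8% of all genes differed by as much, with 16.4% lower and 14.4% higher. The 7 entries lay inside -1.69 to 1.49, the range that leaves out the lowest and the highest 2.5% of all genes between these means. The LIPUS value was below the Control value in 8 of the 12 entries and in 52.7% of all genes of that range. Hoxa7, Hoxc6 and Hoxd4 no longer passed 1.5-fold with 1 added to each value in place of 0.1.

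Among the 5 entries with a mean FPKM of at least 7, none differed by 1.5-fold, against 8.12% of all genes at that level (4.05% lower and 4.07% higher). The log2 ratio was -0.16 for Hoxc10, -0.0018 for Hoxd8, -0.33 for Hoxa10, -0.44 for Hoxa9 and 0.05 for Hoxa11. All of these lay inside -0.71 to 0.72, the range that leaves out the lowest and the highest 2.5% of genes at that level. Together the 5 genes held 63.2% of the summed Hox FPKM in Control and 67.3% in LIPUS.

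The sign of the ratio was counted over all members above 0, those under the limit on the mean included, beside a LIPUS value below Control in 50.7% of the 16476 genes above 0 in either group. In HoxA, 9 of 11 genes had a lower value with LIPUS, Hoxa5 and Hoxa11 being the exceptions, and the log2 ratio of the summed FPKM was -0.39. The log2 ratio of sums was -0.83 for the anterior, -0.78 for the central and -0.26 for the posterior HoxA genes. The Control sums of these HoxA genes were 3.73, 12.1 and 40.0, so the ratio was lowest where the level was lowest. For HoxC the ratio was 0.17 for the central and -0.21 for the posterior genes. For HoxD it was -2.36 for the anterior (Control sum 0.441), 0.01 for the central and -0.45 for the posterior genes. In HoxC 5 of 8 genes above 0 were lower, with a log2 ratio of sums of -0.15, and in HoxD 5 of 7, with -0.17. These shares were not tested against each other. The values within a cluster may not be independent of one another, which was not tested. Hoxa2 to Hoxa7 were placed in a single locus with 12 genes in the deposited comparison. Likewise 5 HoxC genes (Hoxc5, Hoxc6, Hoxc8, Hoxc9 and Hoxc10) were placed in another. Of these, Hoxa4 to Hoxa7, Hoxc6, Hoxc8 and Hoxc9 share no exonic bases with another listed gene on their strand. In HoxD, Hoxd3, both Hoxd4 entries and Hoxd8 shared a locus of 10 genes, and Hoxd10 and Hoxd11 shared one of 3. Below a mean FPKM of 1, 9 further entries were above 0, of which 7 were lower with LIPUS, and no value of LIPUS among them reached 1.

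**Figure D3:**
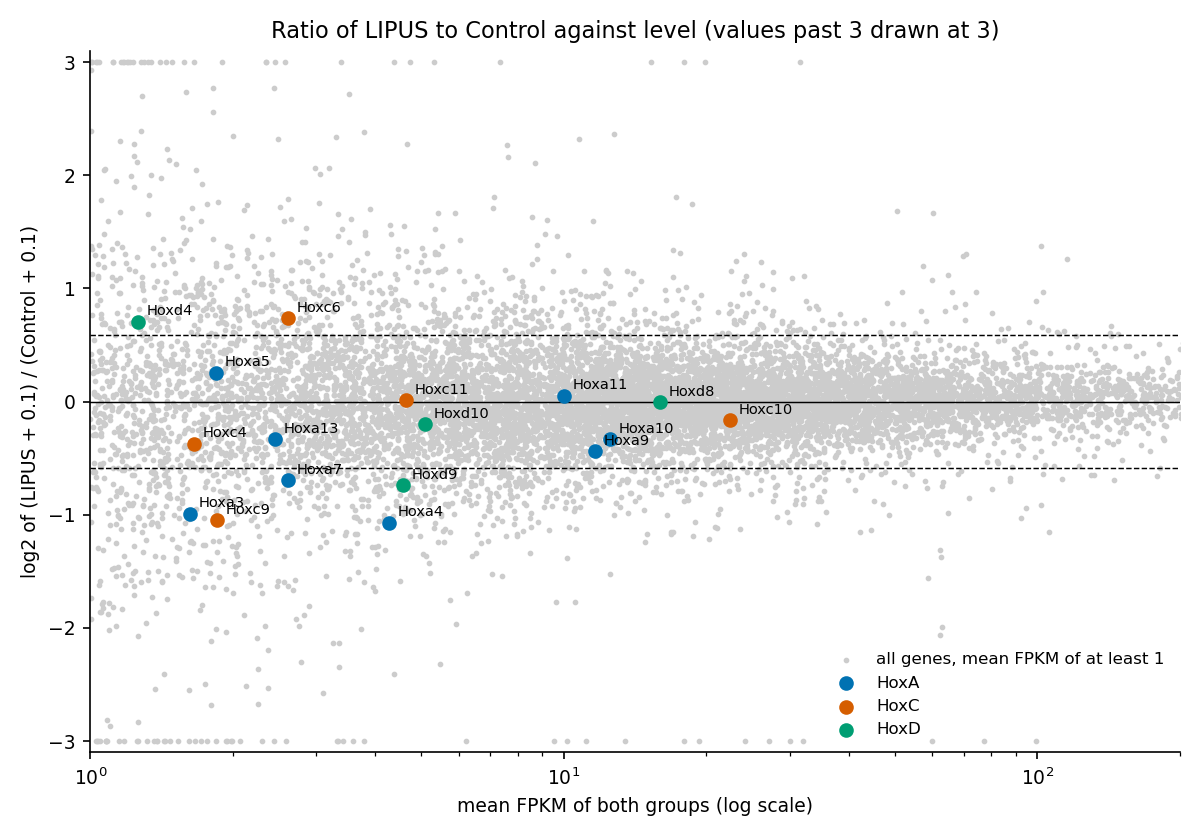
Log2 ratio of LIPUS to Control (vertical axis, 0.1 added to each FPKM, values past 3 drawn at 3) against the mean FPKM of both groups (horizontal axis, log scale), with all 11536 genes of a mean FPKM of at least 1 as grey points as far as the axis reaches and the 17 Hox entries coloured by cluster; dashed lines mark 1.5-fold. The 5 Hox genes above a mean FPKM of 7 lie between the lines, and the 7 entries outside them lie to the left of it.

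Hox proteins bind DNA together with the TALE homeodomain proteins of the Pbx, Meis and Pknox families. Of 9 such genes 7 had a mean FPKM of at least 1, of which 2 were at least 1.5-fold lower with LIPUS and none that much higher, beside 8.08% lower and 7.46% higher among all genes with such a mean. Their median log2 ratio was -0.22. Both of the lower genes had a mean FPKM of at least 7, where 4.05% of all genes were at least 1.5-fold lower. Meis2 had an FPKM of 11.1 in Control and 4.87 in LIPUS (log2 ratio -1.17), and Pbx3 one of 18.5 and 11.1 (-0.73). Pbx2 had 11.1 and 8.89, and Meis1 1.90 and 2.72. Pbx4 and Pknox2 were listed at 0. The partners present in Control thus came from all 3 families.

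Polycomb proteins keep Hox genes silent through marks on histones, and trithorax proteins keep them active. All 20 Polycomb genes had a mean FPKM of at least 1. Ezh2, the enzyme that methylates histone H3, had 45.9 in Control and 41.6 in LIPUS, and Eed, which belongs to the same complex, 49.0 and 45.9. The median log2 ratio over the Polycomb genes was -0.06. Of 10 genes of trithorax complexes and histone demethylases, all above that mean, 1 differed by 1.5-fold, which is near the 15.5% of all genes with such a mean. It was Men1 (menin), with 16.9 in Control and 10.4 in LIPUS (log2 ratio -0.69). Kmt2a, the methyltransferase that binds menin, had 6.63 and 7.02, and Psip1 75.2 and 72.1.

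Positional identity also involves factors outside the clusters, and 40 of them, of the limb, the body axis, the somites and the head, were looked up. Of these 19 were listed at 0 in both groups, among them Tbx5, the forelimb factor, Lmx1b, which marks the dorsal side of the limb, and En1, which marks the ventral ectoderm. Pitx1, a hindlimb factor, had an FPKM of 17.9 in Control and 16.9 in LIPUS, whereas Tbx4, another hindlimb factor, stood at 0.645 and 0.310. Shox2, a gene of the upper limb bones, had 27.5 in Control and 30.8 in LIPUS, and Emx2, a gene of the shoulder blade and pelvis, 18.2 and 12.3. The most abundant were Dlx3, with 144 and 169, and Prrx1, a marker of limb mesenchyme, with 48.2 and 53.2.

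Of the 16 such factors with a mean FPKM of at least 1, 4 were at least 1.5-fold lower with LIPUS and none that much higher, beside 8.08% and 7.46% of all genes with such a mean. Their median log2 ratio was -0.26. At a mean FPKM of at least 7, the level of Irx3, Hand1 and Tbx18, 4.05% of all genes were at least 1.5-fold lower. Irx3 had an FPKM of 44.0 in Control and 27.4 in LIPUS (log2 ratio -0.68), Hand1 one of 18.5 and 10.3 (-0.85), Tbx18 one of 10.1 and 6.07 (-0.73) and Dlx2 one of 4.45 and 2.73 (-0.68). Hand1, Irx3 and Tbx18 had levels above those of the Hox genes that differed.

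**Figure D4:**
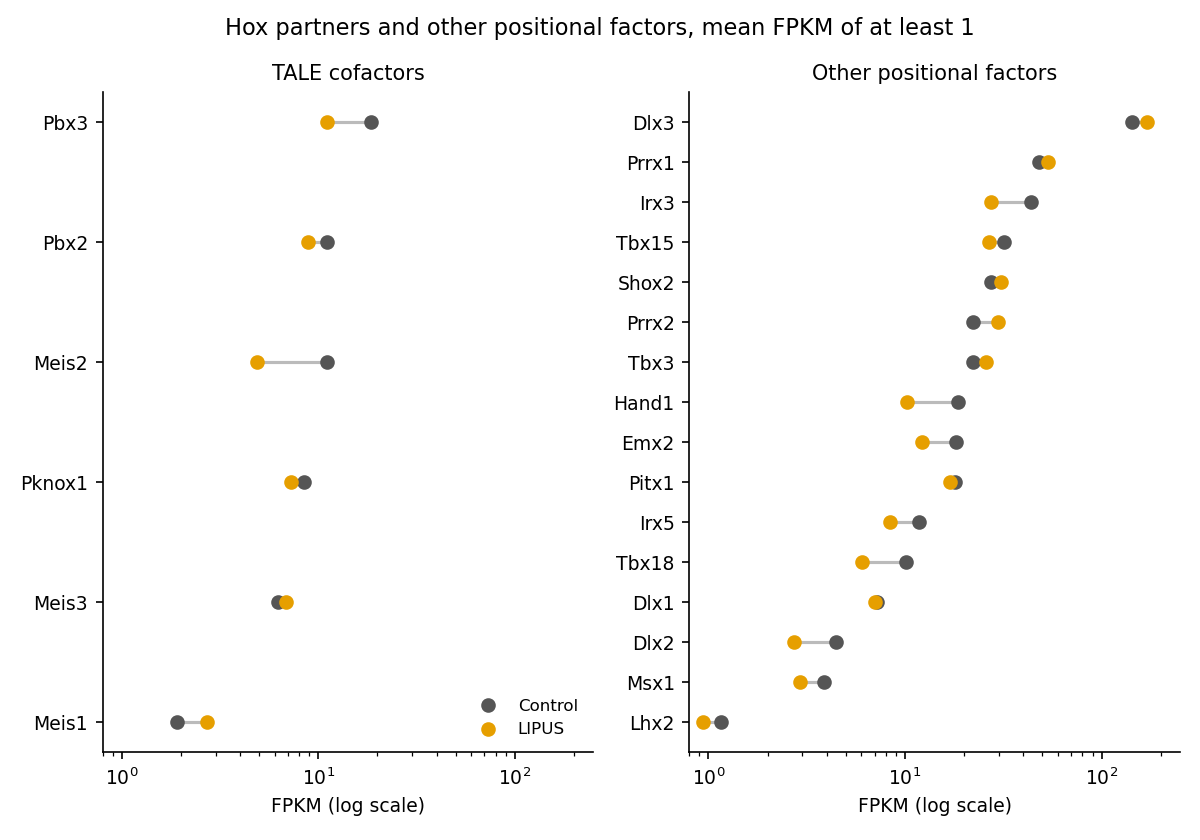
FPKM (horizontal axis, log scale) in Control (dark points) and LIPUS (orange points) of the TALE cofactors and of the other positional factors with a mean FPKM of at least 1 that are reported here, ordered by Control level, 1 pooled value per group. Meis2 (11.1 and 4.87) has the widest gap among the cofactors, and Hand1 (18.5 and 10.3) among the other factors.

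The identity of the cells was checked on marker genes. Of the osteocyte markers, Pdpn had an FPKM of 295 in Control and 402 in LIPUS, Gja1 176 and 170, and Dmp1 3.04 and 7.65, while Sost, Mepe and Fgf23 were listed at 0 and Phex was at 0 in Control and 0.190 in LIPUS. Of 6 osteoblast markers with a mean FPKM of at least 1, 3 were at least 1.5-fold lower with LIPUS. They were Runx2 (24.4 and 14.8), Alpl (293 and 190) and Sp7 (5.86 and 3.75). Of all genes with such a mean 8.08% were that much lower. The share was 4.05% at a mean of at least 7, where Runx2 and Alpl lay. Spp1 (4514 and 4158), Col1a1 (891 and 731) and Col1a2 (334 and 303) were within 1.5-fold, Bglap was listed at 0 in Control and at 1.58 in LIPUS, and Ibsp was listed at 0. Of 12 markers of other cell types (blood, endothelium, muscle, nerve, epithelium and cartilage) 9 were listed at 0, and the list summed to 6.50 in Control and 2.74 in LIPUS. Most of that sum was Cd68, a gene of macrophages, with 5.32 and 1.72. Their part in the Hox differences was not tested.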

How the data were processed

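RNA-seq of 3 LIPUS-treated and 3 Control cultures of MLO-Y4 cells was analysed from 1 table. Per the labels and the methods, the authors trimmed reads (Trimmomatic 0.36), aligned them to GRCm38 (TopHat2 2.1.0, Bowtie2 2.2.6.0) and computed FPKM with Cuffdiff of Cufflinks (2.1.1 in the submitters' processing notes, another version in the methods). The authors deposited 1 FPKM per gene and group, pooled over the cultures. The table also holds the authors' log2 fold changes, test statistics, p-values and q-values, which were not used. It holds no counts, so the mapped depth of each library is not in it (the methods state only a nominal read number per sample), and no count test or interval was possible.

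Members were taken by symbol. Log2 ratios were computed with a pseudocount of 0.1, for genes with a mean FPKM of at least 1, and 1.5-fold was the limit of a difference. The members, the gene lists and the limits were chosen with earlier results of these data known. Genes were named if they were Hox genes, passed 1.5-fold in a list, were among the 4 most abundant of a list or neighboured a cluster. Hoxd11, Tbx5, Lmx1b, En1, Tbx4, Pitx1, Shox2, Emx2, Kmt2a, Meis1, Aldh1a3, Cyp26b1, the transcripts inside the clusters and Psmb11 were named for their known roles or place after their values were seen. Positions came from GENCODE M21 (GRCm38), which held 99.8% of the gene identifiers, and promoter windows from RefSeq (GRCm38.p6). Python 3.11.15 with numpy 2.4.6, pandas 2.3.3 and matplotlib 3.10.9 was used. Some genes of the clusters and lists are not reported here by name, but they are included in the sums and counts.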

Additional observations from a re-analysis of the deposited data

How the results depend on the processing

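No paired analysis was possible because the table gives 1 value per group and none per culture, and for the same reason no culture could be left out. Other pseudocounts (1 and 0.01), centring on the median of all genes and rescaling to the same sum of FPKM left 4 or 5 Hox entries lower with LIPUS. With a pseudocount of 1, 0 were higher. Without the filter on low values 11 of 26 Hox entries were lower and 3 higher. The share of all genes without that filter is not given here. In the cofactor, chromatin, positional and retinoic acid lists together 5 genes were then higher in place of 2 (both of the retinoic acid list). With a mean FPKM of at least 5, 6 Hox entries passed, none of them among the 7 that differed by 1.5-fold, 0 were lower, 0 were higher and the median log2 ratio was -0.18. With 2-fold as the limit on the ratio with 0.1 added, 2 Hox entries were lower (Hoxa3, at a log2 ratio of -0.99, was not) and 0 higher, and 1 gene of these lists was lower and 0 higher. With the smaller fold tried as the limit, 9 Hox entries were lower and 2 higher, and 16 genes of these lists were lower and 4 higher. For neither of these fold limits is the share of all genes given here, so these counts cannot be read against all genes. In alternatives chosen after seeing the data, 1 Hox entry was higher without Hoxd3 and Hoxd4, and 1 when the entries of Hoxd4 were summed. With a minimum of 5, 8 Hox entries counted as expressed in Control. Without counts, the counting error of the entries at low FPKM cannot be given.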

Other observations

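Retinoic acid is a known input to Hox genes, and of 17 genes of its pathway and related inputs 11 had a mean FPKM of at least 1. Rarg, the receptor with the highest level, had an FPKM of 145 in Control and 117 in LIPUS, and Rara one of 21.9 and 24.7. Of the 11 genes, 2 were at least 1.5-fold higher with LIPUS and 2 at least 1.5-fold lower. Of all genes with such a mean 15.5% differed by as much either way, and 8.12% of those with a mean of at least 7. The median log2 ratio of the 11 genes was 0.01. Aldh1a2, an enzyme that makes retinoic acid, had 5.56 in Control and 10.6 in LIPUS (log2 ratio 0.92), and Cyp1b1, a cytochrome P450, had 20.2 and 32.3 (0.67). Crabp2, which carries retinoic acid to its receptors, had 39.2 and 22.6 (-0.79), and Rarb, a receptor that is itself a target of retinoic acid, had 3.29 and 2.08 (-0.64). Aldh1a3, an enzyme of the same step as Aldh1a2, had 8.62 and 8.44, and Cyp26b1, which breaks retinoic acid down, 0.633 and 1.33. None of these values carries a test.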
